A study of Mus musculus with 8 samples.

Results

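Conjugation is the second phase by which the liver clears drugs, hormones, bile pigments and lipid oxidation products. Of the 46078 genes in the count table, 64 protein-coding genes encode enzymes of its 3 main routes. They were chosen by gene symbol alone: 22 soluble glutathione transferases (Gsta, Gstk, Gstm, Gsto, Gstp, Gstt and Gstz), 21 UDP-glycosyltransferases of the families Ugt1 to Ugt3 and 21 sulfotransferases (Sult). Glutathione transferases join the tripeptide glutathione to reactive electrophiles. Most UDP-glycosyltransferases add glucuronic acid taken from UDP-glucuronate, and sulfotransferases add a sulfate group taken from the donor PAPS. The products are more soluble in water and leave the hepatocyte through export pumps towards bile or blood. Several of these genes are textbook targets of the xenobiotic-sensing regulators NRF2, AHR, CAR and PXR, and many differ between the sexes or across the liver lobule in mice.

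RNA was sequenced from the fasted livers of 8 mice that had drunk 30% (w/v) fructose for 22 weeks. Of these, 5 were wild-type (WT) and 3 lacked Rbfox2, the gene of a splicing regulator, in hepatocytes (Rbfox2 KO). Deletion used floxed Rbfox2 alleles and a Cre recombinase driven by the albumin promoter, a strategy that the study describes as selective for hepatocytes. The study's methods describe male mice that were 8 weeks old when a diet began and controls that carried the floxed alleles without Cre, whereas the sample labels say only WT.

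The samples carried 24829693 to 37823155 counts, and 3 counts, the smallest level taken as seen, equalled 0.0839 to 0.118 CPM (counts scaled by library size with TMM factors). Rbfox2 itself lay between 14.0 and 23.2 CPM in WT mice and at 6.84, 8.61 and 12.4 CPM in Rbfox2 KO mice, with no overlap. All 7 hepatocyte markers matched in the table were high in all samples, with sums of 69808 to 85356 CPM. The Y-linked gene Ddx3y lay between 44.9 and 54.8 CPM in all 8 mice. The library Rbfox2 KO 1 stood apart: 12 genes of the exocrine pancreas summed to 454 CPM there and to at most 10.7 CPM elsewhere, and 10 pericentral hepatocyte genes summed to 3425 CPM there against 6863 to 8232 CPM elsewhere. Skeletal muscle genes summed to 168 to 267 CPM in WT 4, WT 5 and Rbfox2 KO 1 and to at most 36.6 CPM elsewhere. The part of admixed tissue in the values below was not tested, and values without Rbfox2 KO 1 stand beside the results that it moved most. Because whole liver was sequenced, fewer cells of a type and less RNA per cell cannot be told apart.

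The sequences just upstream of 6 members are shown because these genes carry the patterns described below. Gstp1 and Gstp2 varied widely between the WT mice, Gsta1 and Gsta2 were high in a single library, and Gsta3 and Ugt1a5 had the smallest p between the genotypes among members. Windows of 250 bases before the start site came from RefSeq (GRCm38.p6), which held one for 56 of the 64 members. Each is written along the gene's own strand, and stops before the first base that GENCODE annotates as exon unless the capitals reach into it. For Gstp2 and Gsta2, GENCODE also has longer transcripts that start farther upstream, so these windows lie in an intron of them.
Gstp1, chr19:4037978-4038162, minus strand: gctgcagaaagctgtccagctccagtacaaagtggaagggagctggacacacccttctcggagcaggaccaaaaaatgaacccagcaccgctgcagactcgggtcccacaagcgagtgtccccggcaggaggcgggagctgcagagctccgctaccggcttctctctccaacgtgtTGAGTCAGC
Gstp2, chr19:4042264-4042471, minus strand: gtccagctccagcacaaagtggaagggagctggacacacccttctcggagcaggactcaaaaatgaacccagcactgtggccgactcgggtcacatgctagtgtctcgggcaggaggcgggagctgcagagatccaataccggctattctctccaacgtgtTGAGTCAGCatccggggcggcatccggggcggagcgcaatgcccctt
Gsta1, chr9:78230419-78230655, plus strand: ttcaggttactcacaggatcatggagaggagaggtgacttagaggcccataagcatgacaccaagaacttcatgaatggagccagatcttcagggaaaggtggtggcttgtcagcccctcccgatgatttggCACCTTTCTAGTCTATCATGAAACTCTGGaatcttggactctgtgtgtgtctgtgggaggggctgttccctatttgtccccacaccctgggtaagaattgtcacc
Gsta2, chr9:78347169-78347395, minus strand: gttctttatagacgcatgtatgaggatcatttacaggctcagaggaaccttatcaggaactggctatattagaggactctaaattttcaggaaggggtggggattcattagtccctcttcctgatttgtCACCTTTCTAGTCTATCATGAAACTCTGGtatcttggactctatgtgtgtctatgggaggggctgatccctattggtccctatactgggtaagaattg
Gsta3, chr1:21240335-21240584, plus strand: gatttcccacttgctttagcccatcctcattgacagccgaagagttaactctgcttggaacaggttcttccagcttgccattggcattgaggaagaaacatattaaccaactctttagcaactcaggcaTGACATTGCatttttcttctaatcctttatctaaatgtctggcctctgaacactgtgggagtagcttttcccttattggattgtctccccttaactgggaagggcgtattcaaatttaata
Ugt1a5, chr1:88165762-88166011, plus strand: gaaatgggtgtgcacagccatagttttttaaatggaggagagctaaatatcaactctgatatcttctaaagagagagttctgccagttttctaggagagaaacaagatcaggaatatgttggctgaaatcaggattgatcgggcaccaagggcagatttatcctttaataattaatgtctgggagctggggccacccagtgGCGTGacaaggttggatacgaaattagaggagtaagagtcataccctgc

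In Gstp1 and Gstp2 the capitals mark a match to TGANTCAGC, a form of the antioxidant response element to which NRF2 binds. Of 32851 windows for all genes, searched on both strands, 1.02% held this motif, and Gstp1 and Gstp2 were the members found to hold it. The whole windows of the pair were identical at 78.5% of aligned positions. In Gsta1 and Gsta2 the capitals mark their longest shared run, of 29 bases, and the pair was identical at 71.4% of aligned positions. In Gsta3 they mark a match to TGACNNNGC, a looser core of the same element that 10.2% of all windows held, here shared with Gstm5 and Gstm7. In Ugt1a5 they mark GCGTG, the core bound by AHR, which 28.2% of all windows and 10 of 56 member windows held. A match is a string of letters and not a measured binding site.

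**Figure D1:**
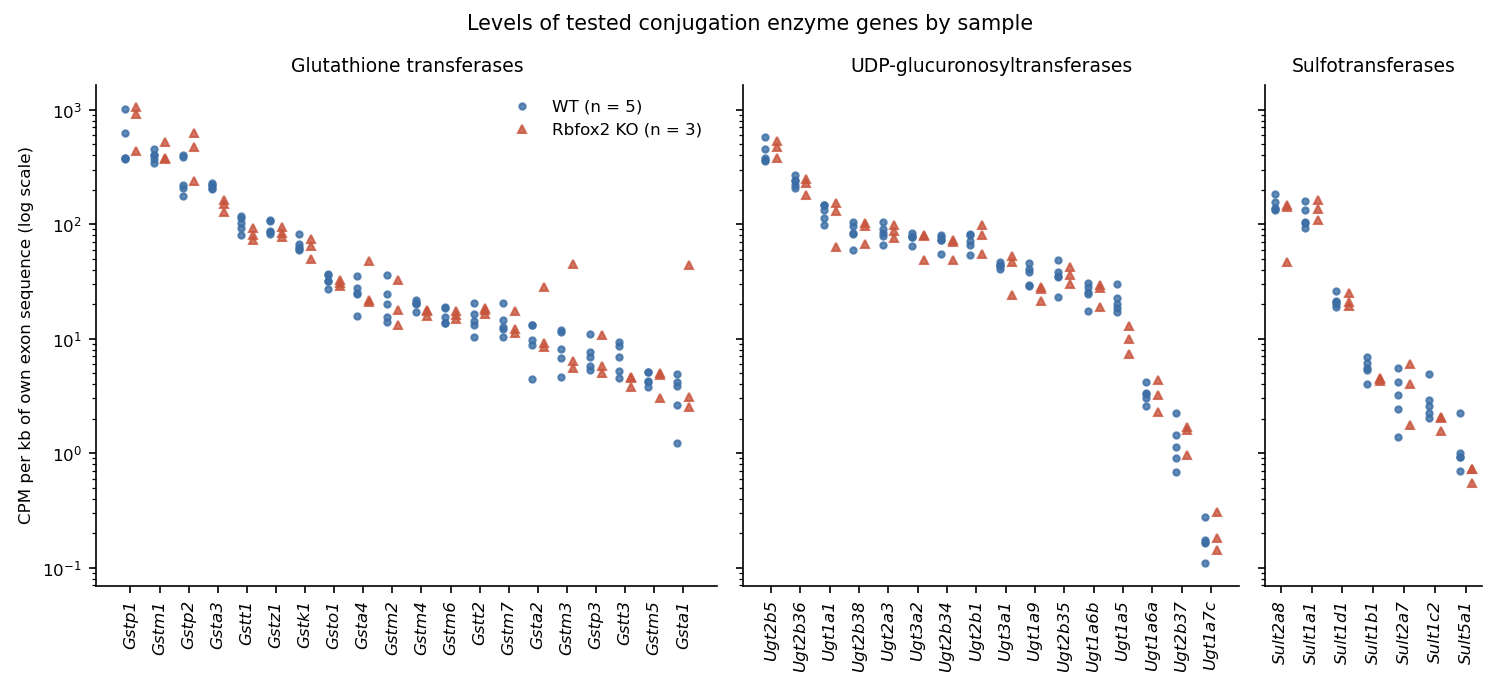
Level of the 43 tested members in each of 8 samples (log axis), ordered within each class by the WT mean. Units are CPM per kilobase of exon that overlaps no exon of another gene on the same strand. Circles are WT and triangles Rbfox2 KO mice; WT means run from 553 for Gstp1 down to 0.179 for Ugt1a7c, and single triangles far above the rest mark Rbfox2 KO 1 for Gsta1, Gsta2 and Gstm3.

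To ask which conjugation genes the fructose-fed liver uses, levels were compared. Of the 64 members, 43 had enough counts to be tested: 20 of 22 glutathione transferases, 16 of 21 glycosyltransferases and 7 of 21 sulfotransferases. Another 10 had no count in any sample. The members took 0.672% to 0.773% of the counts of a library. Glutathione transferases summed to 3761 ± 532 CPM in WT and 4017 ± 576 CPM in Rbfox2 KO (SD, n = 5 and 3). Glycosyltransferases summed to 2780.5 ± 354 CPM in WT and 2749 ± 534 CPM in Rbfox2 KO, and sulfotransferases to 753 ± 52.0 and 647 ± 156 CPM. The sums of the genotypes overlapped in all 3 classes. Sulfotransferase mRNA was concentrated in few genes: Sult2a8 and Sult1a1 made up 88.9% of the WT sum, whereas the top pair made up 47.7% of the glutathione and 45.9% of the glycosyltransferase sum.

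Levels of different genes were compared per kilobase of exon that overlaps no exon of another gene on the same strand. Similar sequence at other positions was not taken out. Gstp1 and Gstp2 thus keep their full exon lengths of 1548 and 1113 bases. Among glutathione transferases, Gstp1 led with 553 ± 278 CPM per kb in WT (SD, n = 5), followed by Gstm1 with 394 ± 40.6, Gstp2 with 278 ± 106 and Gsta3 with 216 ± 10.4 CPM per kb. The WT range of Gstm1 overlapped those of Gstp1 and Gstp2, and that of Gsta3 lay within that of Gstp2. On this scale these neighbours did not differ beyond their spread. Per kilobase of the longest transcript, the WT means were 1044 for Gstp1, 450 for Gstm1, 389 for Gstp2 and 335 CPM per kb for Gsta3. Their order was the same, but the WT ranges of Gstp1 and Gstm1 no longer overlapped, so that overlap depends on the length used. The value of Gstp1 exceeded that of Gstp2 in each WT mouse. However, much of their transcript sequence occurs in both genes, as described below, and the treatment of reads with several alignments was not given. Which of Gstp1 and Gstp2 was higher thus cannot be decided, and their places in this order are uncertain. Gstm1 is a mu-class enzyme, and Gsta3 is the alpha-class enzyme known in mice for detoxifying aflatoxin epoxide. Gstt1, Gstz1 and Gstk1 followed at 101 ± 15.0, 93.9 ± 13.0 and 66.3 ± 9.32 CPM per kb. Per kilobase of the longest transcript, Gstz1 at 157 lay above Gstt1 at 140 CPM per kb. Gstz1 works in tyrosine breakdown, and Gstk1 sits in mitochondria and peroxisomes.

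Among glycosyltransferases, Ugt2b5, which takes steroids as substrates, led with 426 ± 91.9 CPM per kb in WT (SD, n = 5). Ugt2b36 followed with 235 ± 24.4 and Ugt1a1, the enzyme that conjugates bilirubin, with 128 ± 21.4 CPM per kb. Ugt2b38 and Ugt2a3 were next at 85.5 ± 17.4 and 84.6 ± 14.1 CPM per kb, and did not differ beyond their spread. The place of Ugt1a1 depends on the length used, since all 9 Ugt1a genes share their last exons and have 879 to 2142 bases of their own. Per kilobase of the longest transcript, Ugt3a2 took its place among the 4 highest.

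Among sulfotransferases, Sult2a8, a bile acid sulfotransferase of mouse liver, was at 150 ± 21.4 CPM per kb in WT and Sult1a1, which sulfates phenols, at 118 ± 27.2 CPM per kb (SD, n = 5). Their WT ranges overlapped on this scale. Per kilobase of the longest transcript, the WT means were 230 for Sult2a8 and 130 CPM per kb for Sult1a1, and the ranges did not overlap. Sult1d1, which sulfates catecholamines, was lower at 21.5 ± 2.68, and Sult1b1, which takes thyroid hormones, at 5.56 ± 1.04 CPM per kb. Sult2a7, Sult1c2 and Sult5a1 followed at 3.36 ± 1.60, 2.94 ± 1.17 and 1.15 ± 0.61 CPM per kb. The other 14 sulfotransferases had at most 18 counts in any sample. They include Sult1e1, the estrogen sulfotransferase, with 0 to 4 counts, and Sult2a1 with 0 to 3.

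To ask whether loss of Rbfox2 in hepatocytes alters conjugation genes, Rbfox2 KO was compared with WT. With the quasi-likelihood test of edgeR and Benjamini-Hochberg adjustment at 0.05, 0 of 43 members were called, as were 0 of all 14654 tested genes (0%). At an unadjusted edgeR p under 0.05 there were 7 of 43 members (16.3%), against 694 of all genes (4.74%). All 7 were lower in Rbfox2 KO: Gsta3, Gstt3, Gstm4, Ugt1a5, Ugt1a9, Sult1c2 and Sult5a1. Among all genes, 2.33% were lower and 2.41% higher at that threshold. Without Rbfox2 KO 1, the members under it were 4 of 43 (9.30%), which were Gsta3, Gstm4 and Ugt1a5, lower, and Gstp2, higher, against 3.83% of all genes. DESeq2 called 2 members after adjustment, Gsta3 and Ugt1a5, and 59 of 14431 genes (0.409%). It put 8 of the 43 members under an unadjusted p of 0.05 (18.6%), against 4.82% of the same 14654 genes, and also Ugt1a2 and Sult3a1, which edgeR did not test. limma-voom called 0 members. It put 5 under that unadjusted p, a count without the share of all genes beside it. These p-values set the genotype difference against the spread between mice within each group. Whether the mice shared litters or batches is not given, and these fits make no allowance for it.

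The classes were then summarised. The median log2 fold change of Rbfox2 KO over WT was -0.04 for 20 glutathione transferases, 0.01 for 16 glycosyltransferases and -0.33 for 7 sulfotransferases, beside 0.00 for all tested genes. Of the 43 members, 21 had a higher and 22 a lower fitted level in Rbfox2 KO. Leaving out 1 mouse at a time moved these medians from -0.22 to 0.15, from -0.16 to 0.13 and from -0.41 to -0.06. The sulfotransferase median was -0.06 without Rbfox2 KO 1.

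**Figure D2:**
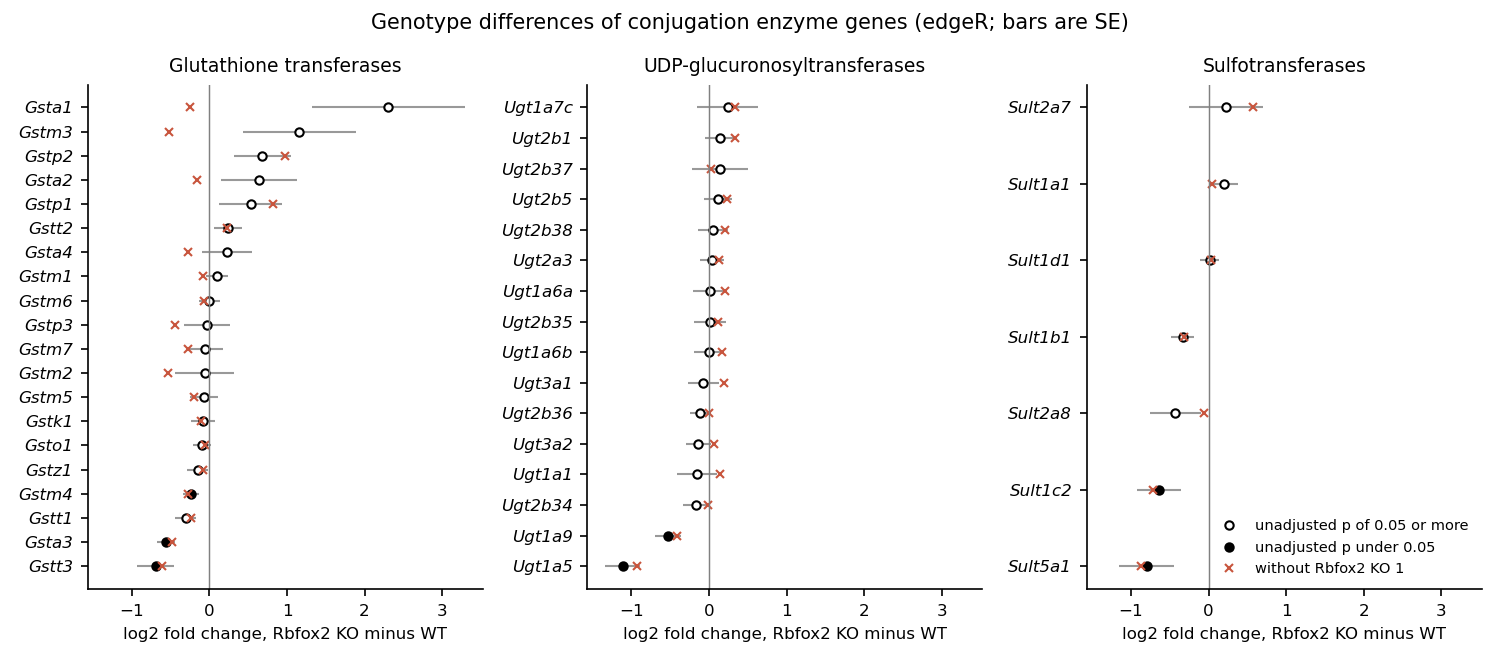
Fitted log2 fold change of Rbfox2 KO (n = 3) over WT (n = 5) for each tested member, with its SE as a bar (edgeR). Filled points have an unadjusted p under 0.05, and all 7 lie left of 0; crosses give the value without Rbfox2 KO 1, which moved Gsta1 from 2.31 to -0.25 and left Gsta3 at -0.48 and Ugt1a5 at -0.93.

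Gsta3 (ENSMUSG00000025934, chr1:21240589-21265661) was the abundant member with the clearest difference. It stood at 962, 985, 957, 882 and 895 CPM in the WT mice and at 556, 702 and 649 CPM in the Rbfox2 KO mice. All Rbfox2 KO mice lay below all WT mice, and the Rbfox2 KO mean was 67.9% of the WT mean. This gave a fitted log2 fold change of -0.56 ± 0.12 (SE); the adjusted p was 0.328 in edgeR and 5.78e-05 in DESeq2. Without Rbfox2 KO 1 it was -0.48, with an unadjusted edgeR p of 0.00181. Of the members tested, 3 (Gsta3, Ugt1a5 and Ugt1a9) lay wholly lower in Rbfox2 KO without overlap, against 266 of all tested genes (1.82%), and 0 lay wholly higher, against 1.89%. Without Rbfox2 KO 1 the same 3 lay wholly lower, against 4.45% of all genes, and 2 (Ugt3a1 and Gstp2) lay wholly higher, as did 686 of 14867 genes.

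The other alpha-class genes were read beside it, and their groups overlapped. Gsta1, Gsta2 and Gsta4, whose product clears the lipid aldehyde 4-hydroxynonenal, sit together on chromosome 9, apart from Gsta3 on chromosome 1. They were chosen for mention after their values were seen, as was Gstm3. Gsta1 stood at 4.03, 3.68, 2.53, 4.65 and 1.18 CPM in WT mice and at 42.1, 2.44 and 2.96 CPM in Rbfox2 KO mice. Only Rbfox2 KO 1 was high, 9.06 times the next sample, and the other Rbfox2 KO mice lay within the WT range. The log2 fold change of 2.31 ± 0.99 (SE) became -0.25 without that library.

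Gstm3 had the same shape, with 59.4 CPM in Rbfox2 KO 1 and 6.04 to 15.5 CPM in the other 7 mice, and its log2 fold change of 1.16 became -0.52 without that library. Gsta2 was at 33.5 CPM there and at 5.26 to 15.6 CPM elsewhere, and Gsta4 at 59.9 CPM against 19.9 to 44.5 CPM. The same library had the highest Cyp2b10, a classical CAR target, with 6.49 CPM against at most 0.414 CPM elsewhere, and the lowest Nr1i3, which encodes CAR, with 75.0 CPM against 188 to 289 CPM. It was also the library with pancreatic transcripts. The part of either in the high Gsta and Gstm values was not tested. Reads of Gsta1 are uncertain, since 81.8% of the 100-base windows of its longest transcript also occur in Gm3776, which has no row in the table used here, and 35.0% of those of Gsta2 occur in Gm10639.

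Of the mu and theta classes, 2 members stood under the unadjusted threshold. Gstt3 was at 31.3, 28.6, 15.1, 23.0 and 17.4 CPM in the WT mice, and the Rbfox2 KO mice at 12.4, 15.4 and 15.0 CPM. WT 3 lay among the Rbfox2 KO values, so the groups overlapped. They differed by -0.69 ± 0.23 (SE) on the log2 scale, at an adjusted edgeR p of 0.882. Gstm4 ranged from 28.9 to 36.9 CPM in WT and from 26.7 to 30.3 CPM in Rbfox2 KO (log2 fold change -0.24 ± 0.10, SE; adjusted edgeR p of 1). Gstm1, the most abundant mu-class gene, differed by 0.10 ± 0.14 (SE) on the log2 scale, and by -0.08 without Rbfox2 KO 1.

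The pi-class genes Gstp1 and Gstp2 varied widely between mice of one genotype. Gstp1 (ENSMUSG00000060803, chr19:4035407-4037985) was at 577, 586, 1567, 966 and 589 CPM in WT mice and at 673, 1419 and 1623 CPM in Rbfox2 KO mice. WT 3, Rbfox2 KO 2 and Rbfox2 KO 3 were high, WT 4 lay between, and the genotypes overlapped. Gstp2 was at 246, 231, 445, 431 and 197 CPM in WT mice and at 264, 699 and 527 CPM in Rbfox2 KO mice. The log2 fold changes were 0.53 ± 0.40 and 0.68 ± 0.37 (SE), with an adjusted edgeR p of 1 for both. Leaving out 1 mouse moved them from 0.29 to 0.87 and from 0.35 to 0.98. The highest value of Gstp2 was that without Rbfox2 KO 1, with an unadjusted edgeR p of 0.0151 and both remaining Rbfox2 KO mice above all WT mice. Gstp3, the remaining pi-class gene, was low at 9.90, 6.24, 4.81, 6.96 and 5.23 CPM in WT mice and 9.73, 5.19 and 4.56 CPM in Rbfox2 KO mice. It was highest in WT 1 and Rbfox2 KO 1 and did not share the high mice of Gstp1 and Gstp2. Between 52.8% and 63.5% of the 100-base windows of these transcripts occur in both genes, so reads may be split between them. Their sum was 785 to 2011 CPM in WT mice and 937 to 2151 CPM in Rbfox2 KO mice. Splitting reads between the genes cannot alter this sum, but discarding shared reads or counting them in both genes would.

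The 4 mice with the highest sum of Gstp1 and Gstp2 (WT 3, WT 4, Rbfox2 KO 2 and Rbfox2 KO 3) were also the 4 highest mice for other members, a pattern looked for after these values were seen. Of the 43 tested members, 6 had exactly these mice on top: Gstp1 and Gstp2, which define them, and Ugt2a3, Ugt2b5, Ugt2b35 and Ugt2b38. Among all tested genes 1.95% did. Gstp1 and Gstp2 are known to be higher in male than in female mouse liver, and of 12 genes known to be male-predominant there, 7 had the same mice on top. They were Cyp2d9, Cyp4a12a, Cyp4a12b, Hsd3b5, Cyp7b1, Susd4 and again Ugt2b38. Hsd3b5 was at 32.1 and 10.7 CPM in WT 3 and WT 4 and at 20.7 and 5.57 CPM in Rbfox2 KO 2 and Rbfox2 KO 3, with 0.314 to 2.54 CPM in the other 4 mice. Of 12 tested female-predominant genes, 2 (Cyp2b13 and Cyp2a4) had these mice as the 4 lowest, against 1.72% of all genes. These 4 mice were 2 of the 5 WT mice and 2 of the 3 Rbfox2 KO mice. What these genes and mice share was not tested.

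**Figure D3:**
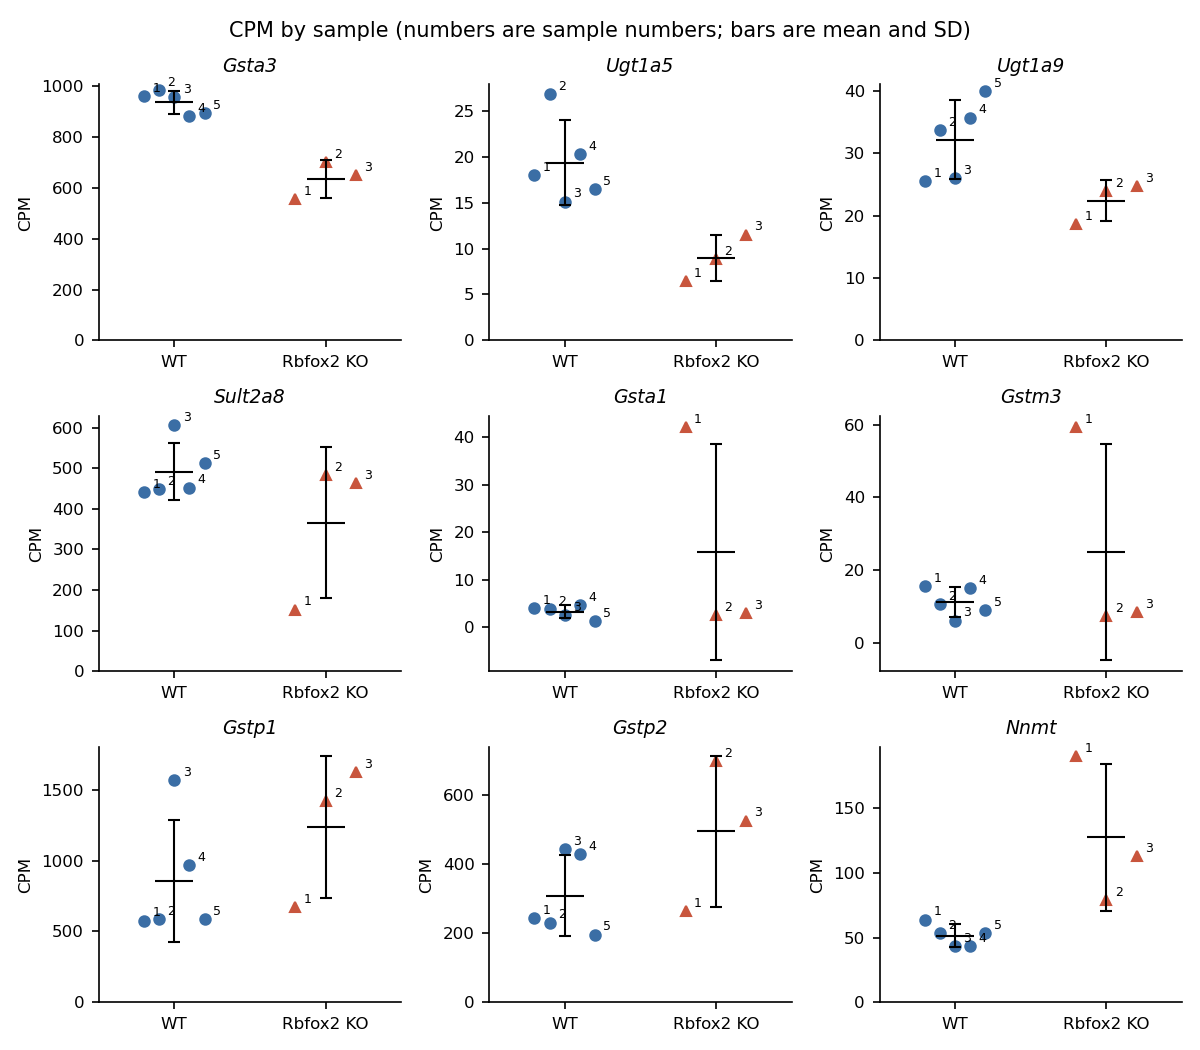
CPM of 8 members and of Nnmt in each mouse, with sample numbers beside the points and the group mean and SD as bars (WT n = 5, Rbfox2 KO n = 3). Gsta3, Ugt1a5 and Ugt1a9 are lower in every Rbfox2 KO mouse, Sult2a8 is low and Gsta1 and Gstm3 are high in Rbfox2 KO 1, where the SD bar reaches below 0, and Gstp1 and Gstp2 are high in mice of both genotypes.

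Among glycosyltransferases, the 2 members under the unadjusted threshold lay in the Ugt1a cluster on chromosome 1, whose genes each join a first exon of their own to shared last exons. Ugt1a5 (ENSMUSG00000089943, chr1:88166012-88218997) was at 17.9, 26.8, 15.1, 20.3 and 16.5 CPM in WT mice and at 6.49, 8.81 and 11.5 CPM in Rbfox2 KO mice. All Rbfox2 KO mice lay below all WT mice, at 46.3% of the WT mean. The fitted log2 fold change came to -1.11 ± 0.23 (SE), and the adjusted p to 0.328 in edgeR and 0.00134 in DESeq2. It was -0.93 without Rbfox2 KO 1, with an unadjusted edgeR p of 0.00257.

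Ugt1a9, an enzyme for phenols, was at 25.6, 33.7, 26.0, 35.7 and 39.9 CPM in WT mice and at 18.6, 23.9 and 24.7 CPM in Rbfox2 KO mice. The groups did not overlap, but Rbfox2 KO 3 and WT 1 lay close together. On the log2 scale they differed by -0.52 ± 0.17 (SE, adjusted edgeR p of 0.882), and by -0.41 without Rbfox2 KO 1. Ugt1a2, which had too few counts to be tested, had 11, 13, 11, 5 and 10 counts in WT and 4, 3 and 4 counts in Rbfox2 KO, and is named here after these values were seen.

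The other tested genes of the cluster overlapped between the genotypes. Ugt1a1 was at 89.9 to 135 CPM in WT mice and at 57.4, 119 and 138 CPM in Rbfox2 KO mice, with only Rbfox2 KO 1 below the WT range. Ugt1a6a and Ugt1a6b had log2 fold changes of 0.01 ± 0.21 and 0.00 ± 0.19 (SE). The sum over the 9 genes was 156 to 230 CPM in WT mice and 106, 185 and 212 CPM in Rbfox2 KO mice. Ugt1a8 had no count in any sample although it includes the shared exons, so reads within them were not given to every gene of the cluster.

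The abundant Ugt2b and Ugt3a genes overlapped between the genotypes. Ugt2b5 was at 667 to 1068 CPM in WT mice and 700 to 985 CPM in Rbfox2 KO mice (log2 fold change 0.12 ± 0.18, SE). Ugt2b36 differed by -0.11 ± 0.14 and Ugt2b38 by 0.05 ± 0.19 (SE) on the log2 scale, and Ugt2b37, the member of this family with the largest relative spread in WT, by 0.14 ± 0.36. Of the 100-base windows of Ugt2b5, 24.7% also occur in Ugt2b38. Ugt3a1 and Ugt3a2, which take sugars other than glucuronic acid, were lowest in Rbfox2 KO 1, at 64.8 and 151 CPM against 107 to 140 and 201 to 261 CPM in the other mice. Ugt3a1 in Rbfox2 KO 2 and 3 lay above the WT range.

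The sulfotransferases held 2 members under the unadjusted threshold, both at low levels. Sult5a1 was at 9.82, 4.07, 4.08, 4.44 and 3.10 CPM in WT mice and 3.20, 3.19 and 2.41 CPM in Rbfox2 KO mice. WT 1 was far above the rest and the groups overlapped. The genotypes differed by -0.80 ± 0.36 (SE) on the log2 scale, at an adjusted edgeR p of 1, and by -0.43 without WT 1. Sult1c2 was highest in WT 3, at 9.14 CPM against 2.88 to 5.35 CPM in the other mice, and its log2 fold change of -0.64 ± 0.28 (SE) became -0.37 without that mouse.

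Sult2a8 was at 441, 448, 607, 452 and 512 CPM in WT mice and at 152, 484 and 462 CPM in Rbfox2 KO mice. Rbfox2 KO 1 stood at 34.6% of the next lowest mouse, and the other Rbfox2 KO mice lay within the WT range. Its log2 fold change of -0.43 ± 0.33 (SE) became -0.06 without that library. Sult1b1 was at 11.2 to 19.1 CPM in WT mice and 11.9 to 12.5 CPM in Rbfox2 KO mice (log2 fold change -0.33 ± 0.15, SE). Sult1a1, Sult1d1 and Sult2a7 differed by 0.20 ± 0.19, 0.01 ± 0.13 and 0.22 ± 0.48 (SE) on the log2 scale. Sult3a1, a female-predominant gene too low to be tested, had 18 and 11 counts in WT 1 and WT 2 and at most 2 in the other mice.

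**Figure D4:**
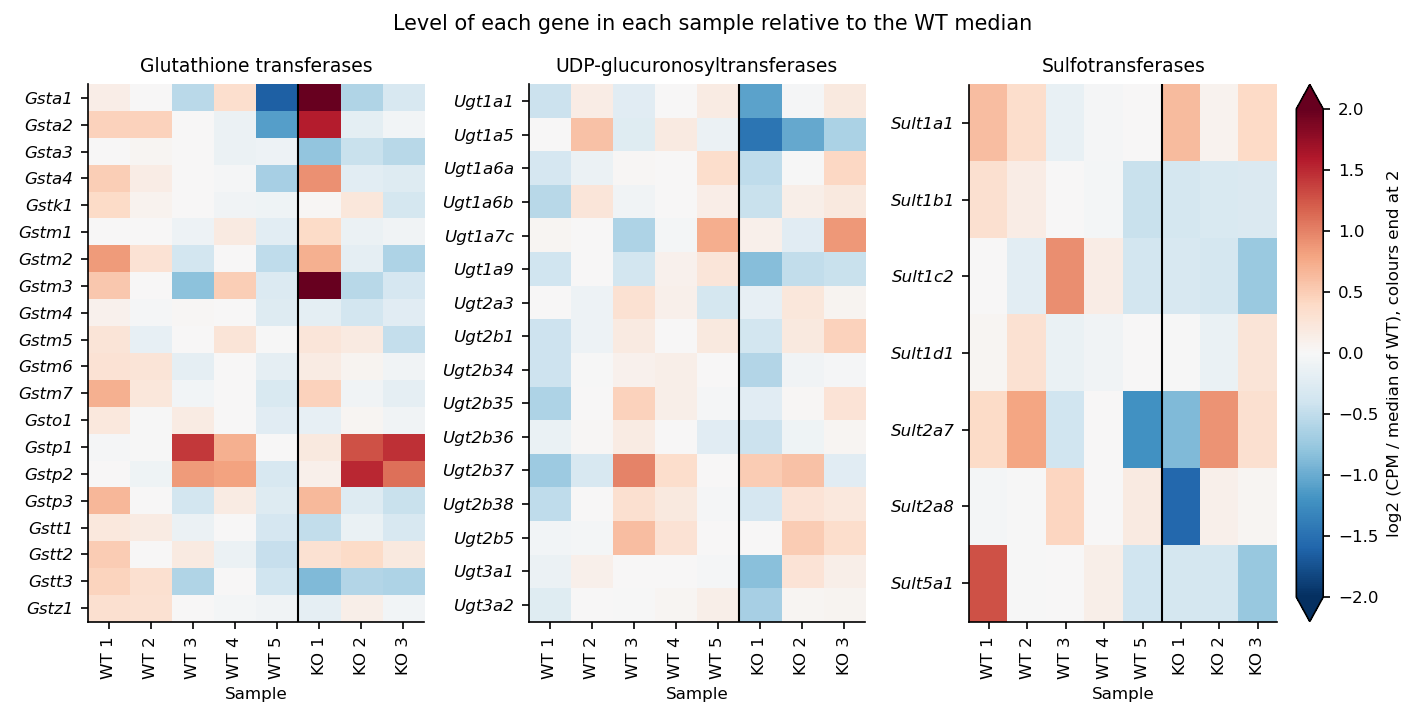
Level of each tested member in each mouse as the log2 ratio of its CPM to the WT median (colours end at -2 and 2; a vertical line parts 5 WT from 3 Rbfox2 KO mice). WT 1 is red for most glutathione transferases and blue for many glycosyltransferases, WT 5 is blue for many glutathione transferases, and Rbfox2 KO 1 is blue for many glycosyltransferases.

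Single mice stood at the ends of the range for many members of a class. WT 1 was the highest mouse for 12 of 20 glutathione transferases and the lowest for 6 of 16 glycosyltransferases, whereas it was highest for 20.4% and lowest for 19.4% of all tested genes. WT 5 was the lowest for 8 of 20 glutathione transferases, against 19.4% of all genes, and Rbfox2 KO 1 was the lowest for 8 of 16 glycosyltransferases, against 16.8%. Transcript length moved with the first of these. Glutathione transferase transcripts are short, with a median of 1180.5 bases over the 20 genes against 2234 bases for the glycosyltransferases. In WT 1, the 2718 tested genes with a longest transcript under 1500 bases lay 0.21 above their mean over the mice (median, log2 scale), and the 7567 genes over 3000 bases lay 0.11 below it. In WT 5 short genes lay 0.21 below and long genes 0.10 above. The glutathione transferases lay 0.30 above in WT 1 and 0.25 below in WT 5, and the glycosyltransferases 0.27 below in WT 1 and 0.15 above in WT 5. The sulfotransferases, with a median of 2143 bases, lay 0.38 above in WT 1 and 0.25 below in WT 5, as the short genes did. The 5 glutathione transferases with transcripts of 1500 bases or more also lay 0.27 above in WT 1. The part of transcript length in these values was not tested.

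The pathways that feed, remove and regulate the conjugates were read from 9 lists, of which 92 genes were tested. In edgeR 0 were called after adjustment, and 10 (10.9%) had an unadjusted p under 0.05, 8 higher and 2 lower in Rbfox2 KO, beside 4.74% of all genes. Without Rbfox2 KO 1 there were 7 (7.61%), 6 higher and 1 lower, beside 3.83% of all genes; of the 10, Nnmt, Cbs and Por were among them. DESeq2 called 1. That gene was Nnmt, which methylates nicotinamide, at 63.9, 53.6, 43.4, 43.6 and 53.6 CPM in WT mice and 190, 79.3 and 113 CPM in Rbfox2 KO mice. All Rbfox2 KO mice lay above all WT mice. They differed by 1.31 ± 0.25 (SE) on the log2 scale, and by 0.89 without Rbfox2 KO 1. The adjusted p was 0.325 in edgeR and 0.000222 in DESeq2.

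Of 12 tested glutathione supply genes, 2 stood under the unadjusted threshold. These were Cth and Cbs, the enzymes that make cysteine from homocysteine, with log2 fold changes of 0.58 ± 0.22 and 0.32 ± 0.10 (SE), or 0.50 and 0.29 without Rbfox2 KO 1. Of 6 genes listed for UDP-glucuronate supply, Slc35b1, of the nucleotide sugar transporter family, was lower at -0.35 ± 0.13 (SE), or -0.27 without Rbfox2 KO 1. None of 8 PAPS supply genes and none of 5 tested AHR targets stood under the threshold. Among 10 export genes it was Abcc3, the pump that carries glucuronides to blood, at -0.38 ± 0.16 (SE), or -0.32 without Rbfox2 KO 1. Among 15 other conjugating enzymes it was Nnmt and Hpgds, a sigma-class glutathione transferase that makes prostaglandin D, at 0.90 ± 0.28 (SE), or 0.63 without Rbfox2 KO 1.

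The 15 regulators had log2 fold changes from -0.49 to 0.58. Nfe2l2, which encodes NRF2, was at 47.2 to 55.9 CPM in WT mice and 49.6 to 56.2 CPM in Rbfox2 KO mice, and its inhibitor Keap1 at 34.7 to 42.4 and 37.1 to 38.9 CPM. Ahr differed by -0.22 ± 0.21 and Nr1i3 by -0.40 ± 0.35 (SE) on the log2 scale. Nr1i2, which encodes PXR, was at 60.1 to 64.3 CPM in WT mice and 69.9 to 72.5 CPM in Rbfox2 KO mice, without overlap (log2 fold change 0.20 ± 0.08, SE; adjusted edgeR p of 0.954). It was the single one of 15 regulators under the unadjusted threshold. Of 17 tested NRF2 targets outside the members, 1 stood under it, Hmox1, with 29.9 CPM in Rbfox2 KO 1 and 14.4 to 18.5 CPM elsewhere. Of 9 tested CAR and PXR targets, 2 did: Cyp2c55, highest in Rbfox2 KO 1 at 2.45 CPM, and Por, at 0.30 ± 0.12 (SE).

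Genes known for their position in the liver lobule were read beside these results. Of 10 periportal hepatocyte genes 9 had a higher fitted level in Rbfox2 KO, and the median over the list was 0.35 (log2). Of 10 pericentral genes 9 had a lower fitted level, with a median of -0.28. Without Rbfox2 KO 1 the medians were 0.33 and -0.03, with 9 of 10 periportal genes higher and 5 of 10 pericentral genes lower. Of these 20, 0 were called by edgeR after adjustment. In edgeR, an unadjusted p under 0.05 was seen for 2 periportal genes and 1 pericentral gene, and DESeq2 called the pericentral glutamate transporter gene Slc1a2. The pericentral sums of Rbfox2 KO 2 and 3, 8232 and 7766 CPM, lay within or just above the WT range of 6863 to 8164 CPM. The part of zonation in the lower Gsta3, Ugt1a5 and Ugt1a9 was not tested.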

How the data were processed

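Poly(A)-selected RNA from fasted livers was sequenced as paired-end libraries. The authors aligned reads to GRCm38 with TopHat2 2.0.11 as strand-specific libraries and deposited whole-number counts from featureCounts, 1 row per Ensembl identifier and no normalization. The submitters' processing notes also name CASAVA 1.8.4. Strand use in counting and the treatment of reads with several alignments were not given in the sources used here, which leaves genes that overlap, lie antisense or share sequence uncertain. Symbols and lengths came from GENCODE M21, which matched 45229 of 46078 rows.

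Genes were filtered with filterByExpr and scaled by TMM, and a model with a genotype term alone was fitted by the robust quasi-likelihood method of edgeR 4.0.16 (R 4.3.3), with p-values adjusted by Benjamini-Hochberg over 14654 genes and called at 0.05. Members sharing over 5% of their 100-base windows with another gene numbered 23 of 64, 14 of them tested. The members, lists and tests were chosen with earlier results of these data known.

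Named were the 4 members per class with the highest WT level per length, the 8 with the smallest edgeR p, those called by DESeq2 1.42.0 and the 4 with the largest relative spread in WT, and, from the supporting lists, genes with an unadjusted p under 0.05 and a few regulators. Alternatives were DESeq2 size factors, library totals, no filter, DESeq2, limma-voom (limma 3.58.1), a replicate block and leaving out each mouse. Floors cover counting error only.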

Additional observations from a re-analysis of the deposited data

Results flagged for a closer look

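In the 5 WT mice, 47 values were searched for a mouse far from the others, where chance alone flags about 1 in 20, or 2.35 values, and 2 were found. Both concern WT 1. Ugt2b34, a glycosyltransferase, was at 237 CPM there and at 315 to 344 CPM in the other WT mice, a gap of 0.725 of the whole range. Sult5a1 was at 9.82 CPM there and at 3.10 to 4.44 CPM in the other WT mice, a gap of 0.801 of the range.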

How the results depend on the processing

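Members and supporting genes called by edgeR stayed at 0 under DESeq2 size factors, library totals, no filter, limma-voom, the replicate block and each left-out mouse. DESeq2 called 2 members, 1 supporting gene and 59 genes in all, and edgeR with no filter called 6 genes in all; the cause was not tested. With DESeq2 the log2 fold changes of Gsta3 and Ugt1a5 were -0.56 and -1.12. Members under an unadjusted p of 0.05 numbered 5 with library totals, 9 with no filter, 10 with DESeq2 and 5 with limma-voom, against 7, and 5 to 9 with 1 mouse left out, where Ugt1a2, not among the 43, was tested in some fits and counted. With DESeq2, 3.31% of all genes that had a p stood under it. For library totals, no filter, limma-voom, the replicate block below and mice left out other than Rbfox2 KO 1, no such share stands beside the count. Those counts show only how the number of members moved. Library totals shifted the median of all genes to 0.12 (log2), with class medians of 0.13, 0.07 and -0.21 for glutathione transferases, glycosyltransferases and sulfotransferases. Leaving out 1 mouse kept 0 calls among all genes, and gave class medians of -0.22 to 0.15, -0.16 to 0.13 and -0.41 to -0.061. Of 120 values of 20 named members under the other settings 116 kept direction and side of the threshold, and of 160 with 1 mouse left out 149 did. The other 11 changed sign, with ranges over the left-out mice of -0.082 to 0.19 for Gstm1, -0.11 to 0.094 for Sult1d1, -0.21 to 0.57 for Sult2a7, -0.40 to 0.14 for Ugt1a1, -0.21 to 0.0058 for Ugt2b36, -0.018 to 0.44 for Ugt2b37 and -0.060 to 0.21 for Ugt2b38; the cause was not tested. Those of Gstm1, Ugt1a1 and Ugt2b36 turned without Rbfox2 KO 1. The sample numbers were not taken to pair the mice. Deviations of same-numbered mice correlated at 0.163, 0.0484 and 0.17, and those of other pairs at -0.412 to 0.371. So few correlations cannot show whether same-numbered mice shared a litter or batch. With the number as a replicate block, in which WT 4 and WT 5 have no partner, 9 members stood under an unadjusted p of 0.05, 0 were called, and Sult1d1 (-0.028) and Sult2a7 (-0.11) changed sign. With 3 Rbfox2 KO mice, and shared sequence in 14 of 43 tested members, small differences are not detectable. Of the 4 highest members per length, 3 glycosyltransferases stayed with longest transcripts, a choice made after seeing the data.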

Other observations

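Conjugating enzymes outside the 64 members varied between single mice as well. Mgst1, a membrane-bound glutathione transferase, was at 2018 to 2588 CPM in WT and 1844 to 2156 CPM in Rbfox2 KO, a difference of -0.13 ± 0.13 (SE, log2 scale, edgeR). Inmt, which methylates indole amines, was at 166 CPM in Rbfox2 KO 1 and at 241 to 483 CPM in the other mice. Slco1a1, a male-predominant uptake carrier for steroid conjugates, was at 31.9 CPM in Rbfox2 KO 1 and at 81.5 to 264 CPM in the other mice, with the highest value in WT 3. Glyat, which joins glycine to acids, and Baat, which joins bile acids to taurine, differed by -0.03 ± 0.15 and -0.16 ± 0.11 (SE, log2 scale, edgeR) between the genotypes.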
